A study of Mus musculus with 4 samples.

Results

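Quiescent hepatic stellate cell genes were described here in the fibrotic mouse liver: 9 genes (Lrat, Reln, Hand2, Colec11, Cygb, Ngfr, Hgf, Rgs5 and Ecm1), chosen by name and matched through the platform's gene symbols, of 12187 genes tested. Where a gene had several probe sets, the one that was brightest on average over the 4 arrays was used, and all 9 passed the filter on low values, a mean signal above 95.03. The series compared G-CSF with PBS, with 2 arrays for each. The G-CSF mice were C57BL/6 animals that received 30 injections of carbon tetrachloride, a hepatotoxin that scars the liver, at 1 ml/kg, and recombinant human G-CSF (granulocyte colony-stimulating factor) at 100 µg/kg over the last 7 days. The PBS mice were C57BL/6 animals given the same 30 injections, and a vehicle of phosphate-buffered saline with 0.1% mouse serum albumin over the last 7 days. Both groups thus carried the toxic injury, and no uninjured liver was analysed here. The labels name bone marrow-derived cells and also liver tissue, and give no sort, number of animals or pooling. Of 17 hepatocyte genes with a probe set, 16 were above background on all 4 arrays, as were 8 of the 9 stellate genes.

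Hepatic stellate cells lie between hepatocytes and the sinusoidal endothelium and hold most of the body's vitamin A as retinyl esters in lipid droplets. Retinol bound to its carrier is taken up, esterified by lecithin retinol acyltransferase (LRAT), and later released by hydrolases for transport or for oxidation to retinoic acid, the ligand of the RAR receptors. On injury these cells lose their droplets and turn into contractile, collagen-producing myofibroblasts, and genes such as Lrat, Reln and Colec11 are used to mark the resting state.

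The upstream sequences of 8 of the 9 genes were found in the RefSeq table (build GRCm38.p6), and Cygb had no entry there. The 250 bases before the annotated start are shown for Lrat, the storage enzyme, Hand2, the transcription factor, and Reln, the matrix glycoprotein, because they stand for the storage, regulatory and secreted roles among the 9 genes. Capitals mark matches on either strand to the E-box CANNTG bound by Hand2 and its basic helix-loop-helix partners, the GC box GGGCGG, the TATA box TATAAA, the nuclear receptor half-site AGGTCA and the homeodomain core TAATTA.
Lrat promoter, chr3:82903975-82904224, minus strand: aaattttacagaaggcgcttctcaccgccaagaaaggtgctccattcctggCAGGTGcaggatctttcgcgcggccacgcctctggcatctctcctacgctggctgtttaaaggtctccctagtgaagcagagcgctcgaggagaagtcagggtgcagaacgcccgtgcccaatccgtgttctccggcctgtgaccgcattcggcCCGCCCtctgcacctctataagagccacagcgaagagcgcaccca
Hand2 promoter, chr8:57320733-57320982, plus strand: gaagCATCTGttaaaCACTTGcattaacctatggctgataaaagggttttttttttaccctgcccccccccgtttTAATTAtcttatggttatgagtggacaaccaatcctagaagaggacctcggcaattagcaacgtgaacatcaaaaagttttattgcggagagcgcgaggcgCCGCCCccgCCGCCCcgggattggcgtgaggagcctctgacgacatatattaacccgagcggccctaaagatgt
Reln promoter, chr5:22344706-22344955, minus strand: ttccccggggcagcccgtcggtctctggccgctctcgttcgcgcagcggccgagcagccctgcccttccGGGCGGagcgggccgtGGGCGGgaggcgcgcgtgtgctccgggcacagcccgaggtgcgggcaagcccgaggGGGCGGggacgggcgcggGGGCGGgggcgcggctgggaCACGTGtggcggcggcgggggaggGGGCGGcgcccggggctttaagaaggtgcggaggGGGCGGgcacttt
The Lrat sequence held 1 E-box and 1 GC box, the Hand2 sequence 2 E-boxes, 2 GC boxes and 1 homeodomain core, and the Reln sequence 1 E-box and 6 GC boxes. Of the 8 genes, 7 had an E-box in these 250 bases, against 66.2% of 32851 promoter sequences of that length, and 5 had a GC box, against 32.7%. A gene was counted if any of its sequences matched, while the shares are per sequence. Hgf had more than 1 sequence, and not every Hgf sequence held an E-box. The half-site was found in 0 of the 8 genes, against 14.0% of all sequences. The form CATCTG of the E-box occurred in Hand2 and Ecm1, against 14.4% of all sequences. The G+C content was 80.0% for Reln, 59.2% for Lrat and 49.2% for Hand2, against a median of 52.4%. A match of these letters is a description of the sequence, and no binding was measured.

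Values are linear signals from the authors' MAS5 processing. A difference is the G-CSF mean less the PBS mean of log2(signal + 23), given with its standard error (SE) from limma, a linear model fitted to every gene. As a background limit for each array, the brightest of 27 control probe sets for sequences that had not been added was taken. It was 86.4 and 63.0 in G-CSF replicates 1 and 2, and 106 and 94.6 in PBS replicates 1 and 2. PBS replicate 1 stood apart: across 12187 genes its Pearson correlation with the other 3 arrays was 0.813 to 0.844, while the other pairs had 0.939 to 0.974. T cell markers were far higher on that array, with summed signals over the 14 genes of that list that had a probe set of 6222 and 4945 in the G-CSF arrays, and 56954 in PBS replicate 1 and 4279 in PBS replicate 2. Neutrophil markers separated the groups, with summed signals over 14 genes of 305511 and 253667 in the G-CSF arrays against 29096 and 17995 in the PBS arrays. Gapdh probe sets at the 3' end read higher than those at the 5' end, a sign of RNA quality, and their ratio was 20.2 and 19.1 with G-CSF against 15.7 and 14.8 with PBS. The part of these cell type and RNA quality values in the results below was not tested.

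The 9 stellate genes did not pass the test between G-CSF and PBS. By limma with Benjamini-Hochberg adjustment over all 12187 genes, 0 of the 9 were called higher and 0 lower, with adjusted p of 0.988 to 0.999, and 0 percent of all genes were called in either direction. Unadjusted p lay between 0.273 and 0.985 for the 9 genes, so 0 of them had an unadjusted p below 0.05, where 3.13% of all genes did on the higher side and 0.386% on the lower. The groups overlapped for all 9, while 18.6% of all genes were higher with G-CSF without overlap and 12.1% were lower. The median difference of the 9 genes was 0.39, with a range of 0.012 to 0.91, beside a median of 0.067 over all tested genes. At least 2-fold differences without overlap were found for 0 of the 9, beside 4.04% of all genes on the higher side and 1.52% on the lower. The 95% intervals were wide, from −1.49 to 1.52 for Lrat and from −0.98 to 2.80 for Hand2. All 9 intervals reached past a 2-fold rise with G-CSF. They also reached past a 2-fold drop, except those of Hand2, Cygb and Rgs5, which ended at −0.98, −0.97 and −0.74. Changes of that size inside the intervals were thus not excluded by these arrays.

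The lack of a call came with a spread between the PBS arrays. The 9 genes had their lowest signal on PBS replicate 1 in 9 of 9 cases, a pattern that was looked at after the values were seen and that 47.0% of all tested genes had. PBS replicate 2 was the highest array for 7 of the 9, beside 28.4% of all genes, and PBS replicate 1 was the highest for 0 of the 9, beside 33.7% of all genes. PBS replicate 1 lowest and PBS replicate 2 highest held for 7 of the 9, beside 21.8%. For the 8 genes above background on every array, PBS replicate 2 lay 2.33-fold (Rgs5) to 4.45-fold (Hand2) above PBS replicate 1 in signal, and for Ngfr, below background on PBS replicate 1, at least 2.80-fold. The 2 G-CSF arrays differed by 1.01-fold to 1.52-fold. The SD between replicates had a median of 0.25 with G-CSF and 1.20 with PBS over the 9 genes, against 0.15 and 0.49 over all genes. Both G-CSF arrays were above PBS replicate 1 for all 9 genes, as for 52.1% of all genes, and both were below PBS replicate 2 for 7 of the 9, as for 37.5% of all genes. In RNA from a mixed tissue, fewer cells of a type and less RNA per cell cannot be told apart.

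**Figure D1:**
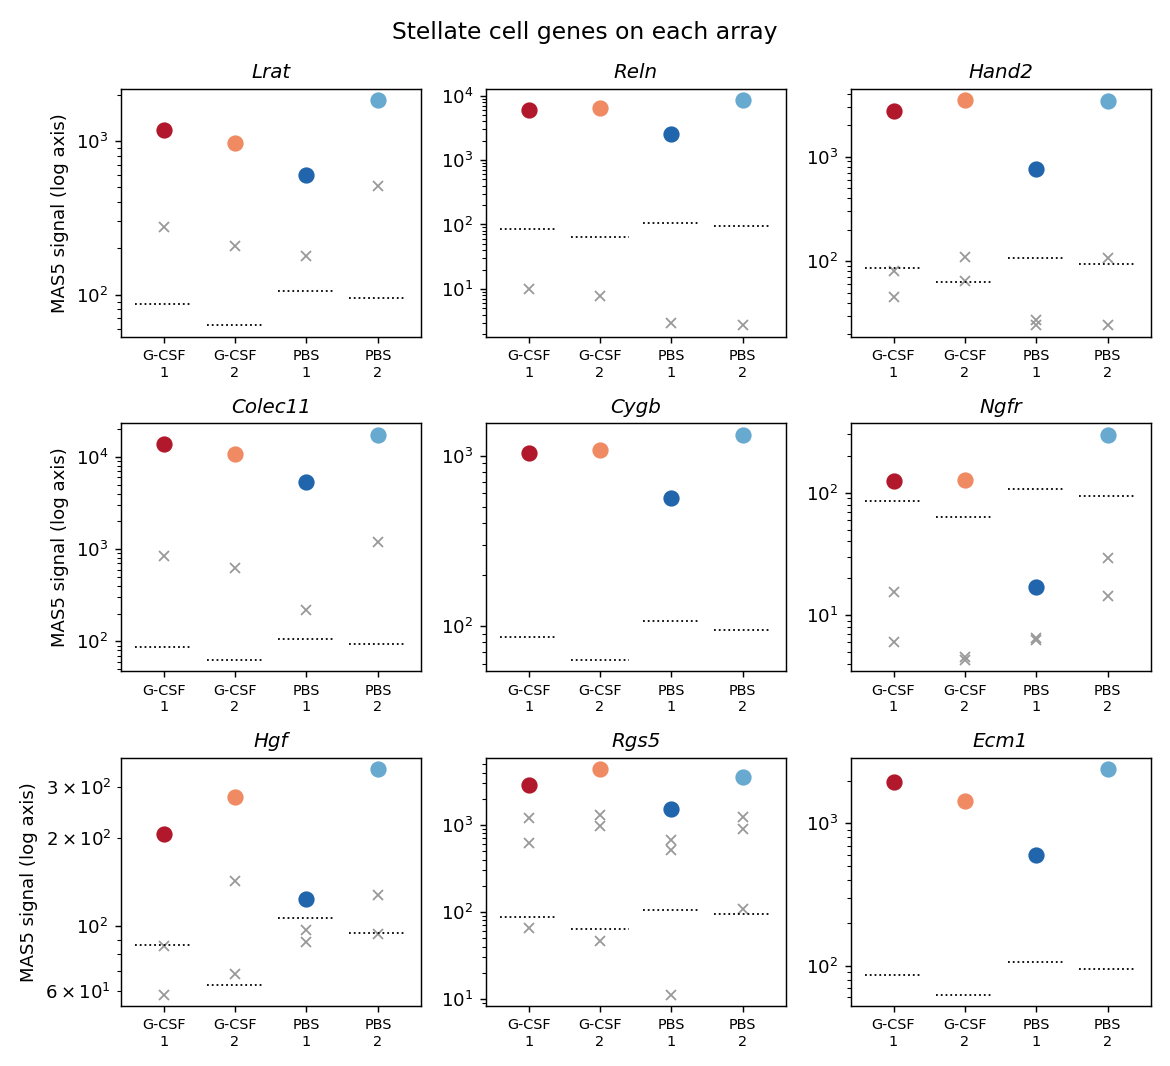
Signals of the 9 genes on each of the 4 arrays (x axis, G-CSF left of PBS; y axis, MAS5 signal on a log axis). Filled points are the probe set used, grey crosses other probe sets of the gene, and dotted lines the background of each array; PBS replicate 1 is the lowest filled point in every panel, and PBS replicate 2 is the highest in 7 of 9.

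The gene spans that follow are those of GRCm38.p6. Lrat (chr3:82892582-82903974), which esterifies retinol for storage, had signals of 1185 and 975 with G-CSF, against 607 and 1858 with PBS. Both G-CSF signals thus lay between those of the PBS arrays, and the difference was 0.012 ± 0.59 (SE, n = 2 arrays per group; limma adjusted p = 0.999). It was the smallest of the 9 differences. A weaker Lrat probe set, with 276 and 208 with G-CSF against 178 and 514 with PBS, had the same order of the PBS arrays and a difference of −0.32. The difference was 0.80 against PBS replicate 1 alone and −0.78 against PBS replicate 2 alone, so its sign differed with the PBS array.

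Reln (chr5:21884454-22344705) encodes reelin, a secreted glycoprotein that stellate cells share with neurons. Its signals were 5965 and 6420 with G-CSF, against 2490 and 8511 with PBS, with both G-CSF arrays inside the PBS range. The difference was 0.42 ± 0.63 (SE, n = 2 arrays per group; limma adjusted p = 0.988), and it was 1.31 against PBS replicate 1 alone and −0.46 against PBS replicate 2 alone. The other Reln probe set had signals of 2.71 to 9.87, below background on all 4 arrays. Ecm1 (chr3:95734147-95739876) encodes extracellular matrix protein 1, a secreted glycoprotein that keeps latent TGF-beta inactive in mouse liver. Its signals were 1968 and 1438 with G-CSF, against 602 and 2404 with PBS. The groups overlapped, and the difference was 0.47 ± 0.70 (SE, n = 2 arrays per group; limma adjusted p = 0.988).

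Colec11 (chr12:28594172-28623458) encodes collectin 11, a soluble lectin of the complement system. Its signals were 13806 and 10774 with G-CSF, against 5370 and 17404 with PBS, again with both G-CSF arrays between the PBS arrays. A second probe set gave 836 and 623 with G-CSF, against 217 and 1204 with PBS, in the same order. The differences by the first and second probe sets were 0.33 ± 0.61 (SE, n = 2 arrays per group; limma adjusted p = 0.988) and 0.46. Hgf (chr5:16553495-16619439), hepatocyte growth factor, is the paracrine signal by which stellate cells promote hepatocyte growth. It had signals of 207 and 276 with G-CSF, against 124 and 345 with PBS, and PBS replicate 1 was little above its background of 106. The difference was 0.17 ± 0.55 (SE, n = 2 arrays per group; limma adjusted p = 0.991). The 2 other Hgf probe sets were above background on 1 and 2 of the 4 arrays. The first overlapped, with 85.6 and 143 with G-CSF, against 88.0 and 93.8 with PBS. The second was lower with G-CSF without overlap, with 58.3 and 68.3, against 97.0 and 128 with PBS. Its difference was −0.64, opposite in sign to the probe set used, on signals near background.

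Hand2 (chr8:57320983-57324517), a basic helix-loop-helix transcription factor made by stellate cells, had signals of 2730 and 3484 with G-CSF, against 770 and 3429 with PBS. It had the largest of the 9 differences, 0.91 ± 0.74 (SE, n = 2 arrays per group; limma adjusted p = 0.988), yet 1 G-CSF array lay below PBS replicate 2 and the other was close to it. Against PBS replicate 2 alone the difference was −0.15, and against PBS replicate 1 alone it was 1.97. The other 2 Hand2 probe sets were above background on 2 and 1 of the 4 arrays.

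Rgs5 (chr1:169655501-169695813), a GTPase-activating protein for G proteins that marks pericytes as well as stellate cells, had signals of 2884 and 4379 with G-CSF, against 1535 and 3568 with PBS. The difference was 0.60 ± 0.52 (SE, n = 2 arrays per group; limma adjusted p = 0.988), and −0.0057 against PBS replicate 2 alone. PBS replicate 1 was the lowest array here too, and G-CSF replicate 2 was the highest. Of the 3 other Rgs5 probe sets, 2 were above background on every array and gave 0.44 and 0.19. Cygb (chr11:116645595-116654504), cytoglobin, is an oxygen-binding globin found in stellate cells. Its signals were 1032 and 1083 with G-CSF, against 560 and 1330 with PBS, and the difference was 0.28 ± 0.49 (SE, n = 2 arrays per group; limma adjusted p = 0.988). Of the other globins, Mb and Ngb were below background on all 4 arrays.

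Ngfr (chr11:95568818-95587698), the low-affinity neurotrophin receptor p75, was measured close to background. Its signals were 125 and 126 with G-CSF, against 17.0 and 298 with PBS, so PBS replicate 1 was below its background of 106. The difference was 0.39 ± 1.02 (SE, n = 2 arrays per group; limma adjusted p = 0.988). Both other Ngfr probe sets were below background on every array. Over all 21 probe sets of the 9 genes, 12 were above background on every array, and PBS replicate 1 was the lowest array in 12 of these 12. A total of 3 probe sets were below background throughout, and 6 were above it on some arrays.

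**Figure D2:**
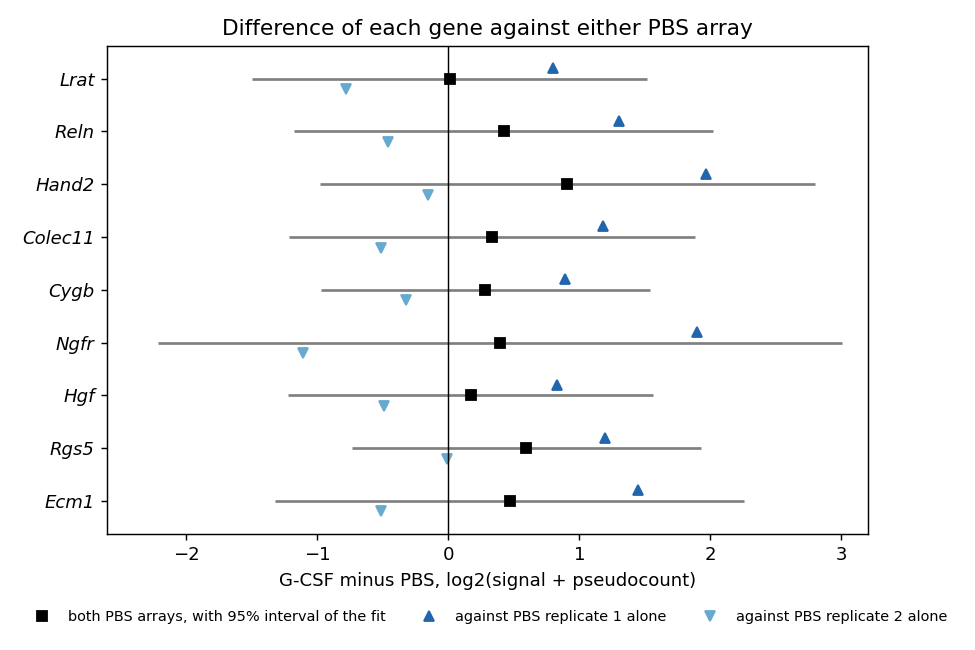
Difference of each of the 9 genes, the G-CSF mean less the PBS mean of log2(signal + 23) (x axis). Black squares with 95% intervals are the fit to all 4 arrays, upward triangles the G-CSF mean against PBS replicate 1 alone, and downward triangles against PBS replicate 2 alone; the triangles lie on opposite sides of 0 for all 9 genes, with Rgs5 at −0.0057 against PBS replicate 2.

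Leaving out either PBS array changed the calls. Without PBS replicate 2, 8 of the 9 genes were called higher with G-CSF by limma (adjusted p = 0.00138 for Hand2 to 0.0342 for Lrat), while Hgf was not (adjusted p = 0.0999), and 22.6% of all genes were called higher and 15.9% lower in that fit. Without PBS replicate 1, 0 of the 9 were called higher or lower (limma adjusted p = 0.121 to 0.995), where 2.78% of all genes were called higher and 1.45% lower, and the differences ran from −1.11 (Ngfr) to −0.0057 (Rgs5). The lone PBS array is assumed in these fits to vary like the G-CSF arrays. For Ngfr without PBS replicate 2, the only PBS signal was 17.0, below the PBS replicate 1 background of 106. The Ngfr difference of 1.90 in that fit rests on this value, beside G-CSF signals of 125 and 126 that were close to that background. Without G-CSF replicate 1 the differences ran from −0.13 (Lrat) to 1.08 (Hand2). Without G-CSF replicate 2 they ran from −0.02 (Hgf) to 0.73 (Hand2).

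The members were also set against each other within each array, which removes a shift they share. Of the 36 pairs of the 9 genes, 10 had a within-array ratio that did not overlap between the groups, which is 27.8% of pairs beside 31.6% of all pairs of tested genes. Lrat was lower with G-CSF relative to 4 of its 8 partners (Reln, Hand2, Colec11 and Ecm1). The ratio of Lrat to Reln was −2.31 and −2.69 on the log2 scale in the G-CSF arrays, against −2.00 and −2.18 in the PBS arrays. Hand2 was higher relative to 5 of its 8 partners. Its ratio to Cygb was 1.38 and 1.66 with G-CSF, against 0.44 and 1.35 with PBS. As the share of separated pairs was near that of all genes, these ratios do not set the 9 genes apart.

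The genes with the most similar profile were found for the 3 members with the widest range over the arrays, Ngfr, Hand2 and Ecm1, as the smallest root mean square difference of centred log2 values over the 4 arrays. For Hand2 these were Lrrk1 (0.070), Tcf21 (0.073) and A2ml1 (0.074). Tcf21, itself a transcription factor of stellate cells and of the same family as Hand2, had signals of 3130 and 4239 with G-CSF, against 1025 and 4234 with PBS. For Ecm1 they were Tlcd4 (0.019), Rrbp1 (0.024) and 9030622O22Rik (0.039). The range of Ngfr rests on its signal below background on PBS replicate 1, so no similar genes are given for it.

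Other stellate cell genes had the same low array. Of 26 tested genes of that list, PBS replicate 1 was the lowest in 24, and 0 were called by limma. The median difference was 0.49, and it was 1.06 against PBS replicate 1 alone and 0.063 against PBS replicate 2 alone. Without overlap 9 genes were higher and 1 lower, beside 18.6% and 12.1% of all genes. Vim, an intermediate filament protein of mesenchymal cells, had 18989 and 21396 with G-CSF, against 7405 and 10348 with PBS. Its difference of 1.20 ± 0.31 (SE, n = 2 arrays per group; limma adjusted p = 0.902) was seen in 2 other probe sets, at 1.10 and 1.35. Des, desmin, the classic rodent stellate marker, had 377 and 334 with G-CSF, against 146 and 259 with PBS, a difference of 0.79 ± 0.40 that did not pass. Gfap, used as a resting stellate marker in rodents, had 168 and 177 with G-CSF, against 106 and 79.0 with PBS. As both PBS signals were not above background, its fold was at least 1.72. Bambi, a decoy receptor of the TGF-beta family that resting stellate cells carry, had 580 and 639 with G-CSF, against 155 and 512 with PBS. Lhx2, a factor that restrains stellate activation in mice, ran the other way, with 105 and 108 with G-CSF, against 149 and 191 with PBS. Its difference of −0.57 ± 0.39 did not pass. Pdgfrb, the growth factor receptor of stellate cells, overlapped between the groups, with 5359 and 6481 with G-CSF, against 3572 and 5632 with PBS.

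Genes of the activated state, which turn on as stellate cells become myofibroblasts, had differences above 0 in 19 of 19 cases. The share of all genes with a difference above 0 was not counted, and the median over all tested genes was 0.067. Such differences were also found for 9 of the 9 stellate, 15 of 15 endothelial and 14 of 16 hepatocyte genes. Among T cell genes they were found for 2 of 13. PBS replicate 1 was the lowest array for 13 of the 19, beside 47.0% of all genes. Of these 19 tested genes, 11 were higher without overlap and 0 lower, beside 18.6% and 12.1% of all genes, while 0 were called by limma. The median difference was 0.64, and it was 0.73 against PBS replicate 1 alone and 0.51 against PBS replicate 2 alone. Acta2, smooth muscle actin, had 8941 and 10426 with G-CSF, against 5164 and 3200 with PBS, a difference of 1.24 ± 0.37 (SE, n = 2 arrays per group; limma adjusted p = 0.988). Myl9, a myosin light chain, had 398 and 567 with G-CSF, against 108 and 105 with PBS, close to background, and a difference of 1.95 ± 0.37 (limma adjusted p = 0.422). Ccn2, connective tissue growth factor, had 8851 and 12360 with G-CSF, against 2982 and 7877 with PBS. Tpm2, a tropomyosin of contractile cells, had 2128 and 1601 with G-CSF, against 980 and 1063 with PBS, a difference of 0.84. Its other probe sets above background on every array differed, with 1.03 without overlap and −0.085 with overlap. Col1a1, a chain of the main scar collagen, overlapped by its brightest probe set, with 2384 and 3588 with G-CSF, against 1737 and 3050 with PBS. A weaker Col1a1 probe set did not overlap, with 400 and 1015 with G-CSF, against 197 and 386 with PBS. The differences by the brighter and the weaker probe set were 0.34 and 1.14. Acta2, Myl9 and Tpm2 are made by smooth muscle as well. In the pericyte and smooth muscle list, 2 of 9 tested genes (Myh11 and Des) were higher without overlap, beside 18.6% of all genes, and its summed signals over 12 genes were 17983 and 21090 with G-CSF, against 11422 and 23857 with PBS. Portal fibroblast and mesothelial markers had summed signals over 14 genes of 10066 and 11248 with G-CSF, against 13645 and 7705 with PBS. Without Thy1, which the T cell list also holds and which was left out after the values were seen, the sums were 9191 and 10198 with G-CSF, against 4508 and 7127 with PBS, with no overlap. Of its 10 tested genes, 4 (Pi16, Eln, Dpt and Clec3b) were higher without overlap, beside 18.6% of all genes, and 0 were called by limma. Pi16, a marker of adventitial fibroblasts, had 1238 and 1032 with G-CSF, against 92.7 and 53.3 with PBS, both below background, so its fold was at least 11.3 (limma adjusted p = 0.104). The part of these cell types in the values above was not tested.

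Retinoid storage, release and transport was covered by 23 genes with a probe set, and 20 were tested, Lrat among them. By limma 0 were called, and 2 were higher and 0 lower without overlap, beside 18.6% and 12.1% of all genes. PBS replicate 1 was the lowest array for 18 of the 20 and PBS replicate 2 the highest for 14. The median difference was 0.26, and it was 0.98 against PBS replicate 1 alone and −0.36 against PBS replicate 2 alone. Dgat1, an acyltransferase that makes triglyceride and can also esterify retinol, was an exception to that order. It had 3223 and 1909 with G-CSF, against 984 and 789 with PBS, with no overlap and a difference of 1.47 ± 0.40 (SE, n = 2 arrays per group; limma adjusted p = 0.977). A second Dgat1 probe set had 124 and 161 with G-CSF, against 79.3 and 48.7 with PBS, both below background. The only other gene of this list without overlap was Ttr, transthyretin, which carries retinol-binding protein in plasma. Its signals were 58705 and 52760 with G-CSF, against 50512 and 52748 with PBS, close to the brightest probe set of each array (63693 and 60665 with G-CSF, 58436 and 62373 with PBS). Rbp4, the plasma carrier of retinol that hepatocytes secrete, had 31487 and 27237 with G-CSF, against 15556 and 35005 with PBS. Stra6, the receptor for that carrier in many tissues, was below background on all 4 arrays, and its relative Stra6l, a retinol transporter of mouse liver, had 1078 and 837 with G-CSF, against 403 and 1293 with PBS.

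Oxidation, clearance and receptors of retinoids were covered by 26 of 28 listed genes, and 22 were tested. By limma 0 were called, the median difference was 0.19, and 4 genes were higher and 2 lower without overlap, beside 18.6% and 12.1% of all genes. The 3 retinol dehydrogenase genes among these differed in direction. Rdh10, which catalyses the first oxidation step from retinol to retinal, had 728 and 475 with G-CSF, against 1254 and 2187 with PBS. Its difference of −1.46 ± 0.44 (SE, n = 2 arrays per group; limma adjusted p = 0.988) was −0.62 by a second probe set. Rdh11, a retinal reductase in cells, had 288 and 407 with G-CSF, against 614 and 751 with PBS, a difference of −0.94 ± 0.35, while a second probe set gave 0.15. Rdh12, a related reductase, had 832 and 456 with G-CSF, against 82.4 and 29.6 with PBS, both below background, so its fold was at least 6.14 (limma adjusted p = 0.336). A second Rdh12 probe set was below background on all arrays. Dhrs3, which turns retinal back into retinol, had 2236 and 1965 with G-CSF, against 757 and 1786 with PBS. Cyp26a1, the retinoic acid hydroxylase that retinoic acid induces in liver, had 784 and 609 with G-CSF, against 233 and 1409 with PBS. It followed the order of the stellate genes, with a difference of 0.24 ± 0.84. Cyp26b1, the related hydroxylase of stellate cells, had 269 and 375 with G-CSF, against 289 and 394 with PBS. Rarb, a retinoic acid receptor whose gene retinoic acid induces, had 182 and 160 with G-CSF, against 139 and 254 with PBS. Both overlapped between the groups.

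**Figure D3:**
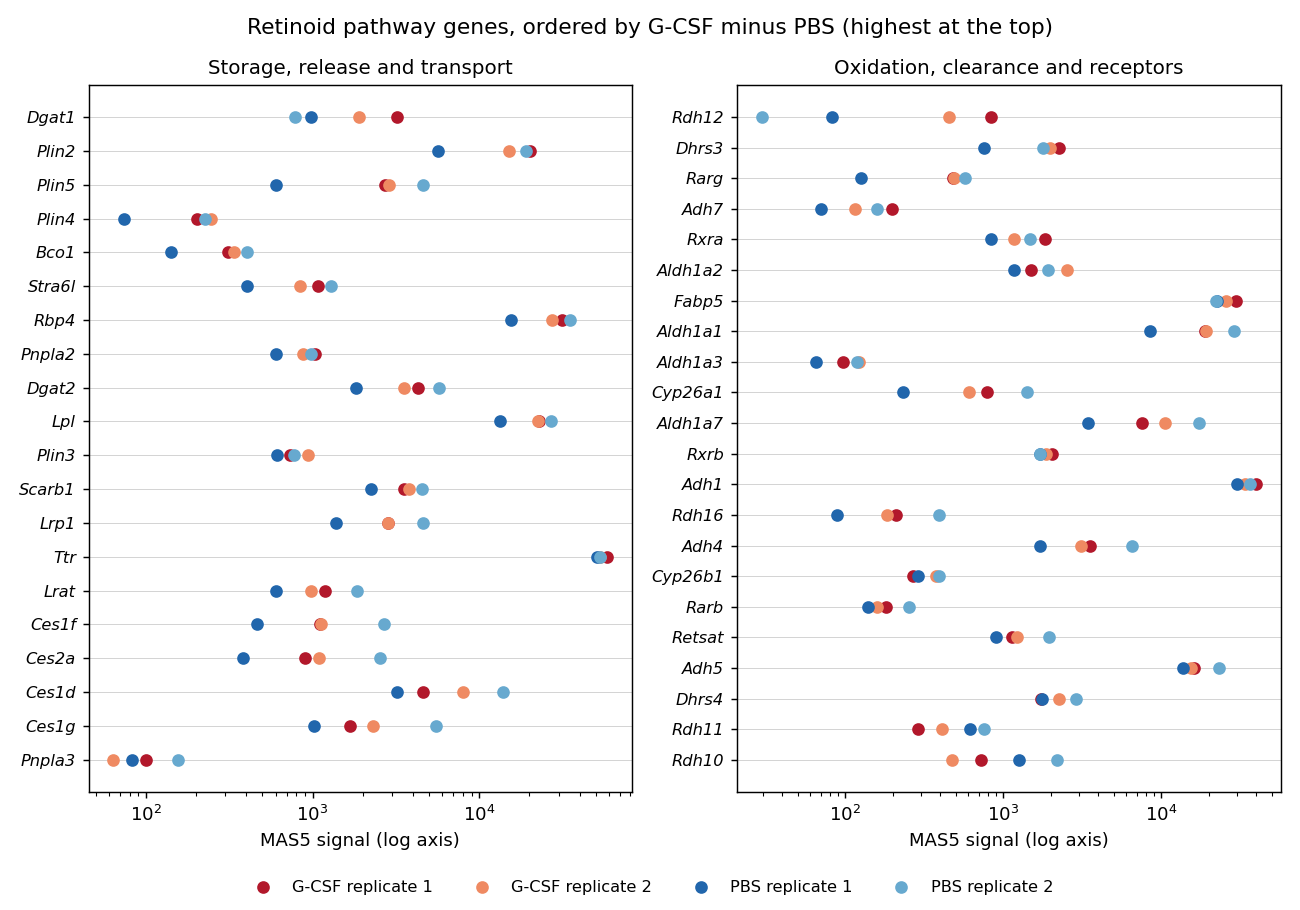
Signals of the tested retinoid genes on each array (x axis, MAS5 signal on a log axis; 1 row per gene, ordered by the difference, G-CSF minus PBS), with 20 genes of storage and transport on the left and 22 genes of oxidation and receptors on the right. Dgat1 and Rdh12 have both G-CSF points right of both PBS points and Rdh10 and Rdh11 left of them, while for most others PBS replicate 1 is the leftmost point.

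Partners of these genes were read in the same way, and each of the lists below also holds its own stellate gene. Among 16 tested genes of the HGF pathway the median difference was 0.18 (0.89 against PBS replicate 1 alone, −0.46 against PBS replicate 2 alone), with 2 higher and 1 lower without overlap, beside 18.6% and 12.1% of all genes. Met, the HGF receptor, had 1316 and 1662 with G-CSF, against 623 and 1987 with PBS, and Hgfac, a protease that activates HGF, had 786 and 624 with G-CSF, against 398 and 1110 with PBS. Both groups thus overlapped for ligand, activator and receptor. Cd44, a hyaluronan receptor that also assists Met and that leukocytes carry, had 5626 and 5596 with G-CSF, against 1626 and 3150 with PBS, and a difference of 1.30 ± 0.43 that did not pass. St14, a protease that can activate HGF, and Spint2, an inhibitor of such proteases, had differences of 0.57 and −0.32. The 13 reelin pathway genes had a median of 0.054, with 2 higher and 2 lower without overlap, beside 18.6% and 12.1% of all genes. Vldlr, a reelin receptor, had 401 and 312 with G-CSF, against 112 and 574 with PBS. Lrp8, the other reelin receptor, was opposite in its PBS arrays, with 104 and 169 with G-CSF, against 422 and 13.9 with PBS. Its PBS replicate 2 signal was below the background of 94.6, and its other probe sets were below background on every array. Fyn, a kinase of this pathway that T cells also use, had 452 and 594 with G-CSF, against 1563 and 713 with PBS, so it was highest on the array with the T cell transcripts.

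Of 9 tested neurotrophin genes, 2 (Sort1 and Ntrk2) were higher without overlap, beside 18.6% of all genes, and 0 were called by limma. Sort1, sortilin, a co-receptor of p75 and a sorting receptor of liver, had 1841 and 1669 with G-CSF, against 423 and 1390 with PBS. Its 2 other probe sets gave 0.70 and 0.96, beside 1.16 for the one used. Of 10 tested lectin pathway genes, PBS replicate 1 was the lowest for 10 and PBS replicate 2 the highest for 9, and the median was 0.20. Masp1, the protease that collectins carry, had 5046 and 5000 with G-CSF, against 1839 and 5738 with PBS, and Colec10, the partner of Colec11 in heteromers, had 667 and 380 with G-CSF, against 239 and 1243 with PBS. The exception was Fcnb, a ficolin of myeloid cells, with 794 and 980 with G-CSF, against 92.7 and 116 with PBS, PBS replicate 1 being below background, and a difference of 2.83 ± 0.34 (SE, n = 2 arrays per group; limma adjusted p = 0.148). Of 7 tested genes of the Rgs5 family, 2 were higher without overlap, beside 18.6% of all genes, and 0 were called by limma. Rgs18, a regulator found in platelets and myeloid cells, had 1447 and 634 with G-CSF, against 49.5 and 118 with PBS, PBS replicate 1 being below background, and a difference of 3.28 ± 0.57 (SE, n = 2 arrays per group; limma adjusted p = 0.338). Rgs2 had 9581 and 8644 with G-CSF, against 6467 and 4783 with PBS, and Rgs16 had 1207 and 520 with G-CSF, against 634 and 1378 with PBS. Rgs4, untested, had 47.3 to 101. The Hand2 partner list also holds other transcription factors, Lhx2 among them. Of its 13 tested genes, 0 were higher and 2 lower without overlap (Lhx2 and Tcf12), beside 18.6% and 12.1% of all genes. Tcf12 had 3238 and 3842 with G-CSF, against 23228 and 4016 with PBS, so it was highest on the array with the T cell transcripts. Its difference was −1.45, and −0.19 against PBS replicate 2 alone. Other Tcf12 probe sets above background on every array gave −1.93 and −0.64 with overlap, and −0.91 without.

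Markers of other liver cells were read on the same arrays. Against PBS replicate 2 alone, the median of the 9 stellate genes was −0.49, that of 16 hepatocyte genes −0.25, that of 15 endothelial genes −0.047, that of 8 cholangiocyte genes −0.22 and that of 12 Kupffer cell and macrophage genes −0.41, beside 0.00070 over all genes. PBS replicate 1 minus PBS replicate 2 had a median of −1.69 for the stellate genes, −1.42 for hepatocyte, −1.43 for endothelial, −1.03 for cholangiocyte and −1.25 for Kupffer cell and macrophage genes, beside −0.16 over all genes. PBS replicate 1 was thus lower for stellate genes and for each of these other liver cell lists. It was the lowest array for 16 of 16 hepatocyte, 15 of 15 endothelial, 8 of 8 cholangiocyte and 12 of 12 Kupffer cell and macrophage genes. Summed hepatocyte signals over 17 genes were 378894 and 356384 with G-CSF, against 238815 and 435130 with PBS. T cell markers were the reverse, with PBS replicate 1 over double every other array for 11 of 13 tested genes, beside 8.73% of all genes.

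**Figure D4:**
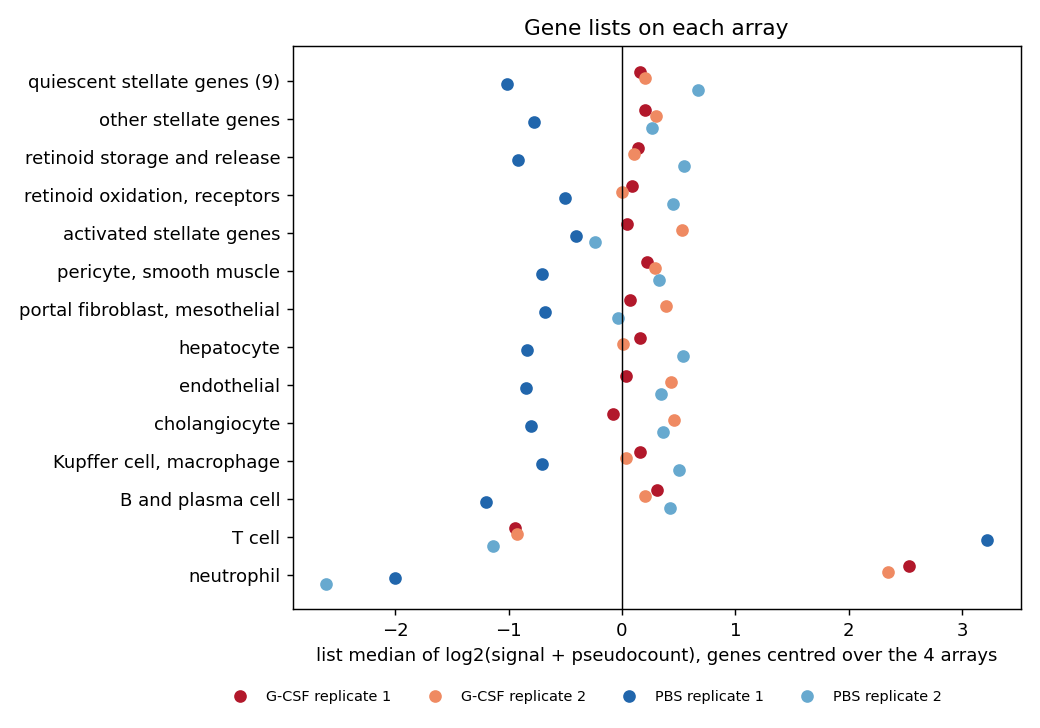
Median over each list of the centred log2(signal + 23) values on each array (x axis; 1 row per gene list, 1 point per array). PBS replicate 1 is the lowest point of the stellate, retinoid, hepatocyte, endothelial, cholangiocyte and Kupffer cell lists and the highest of the T cell list, and the neutrophil list has both G-CSF arrays above both PBS arrays.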

How the data were processed

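Total RNA, 40 ng per sample, was labelled and hybridised to 4 Affymetrix mouse arrays, per the labels' protocols. Per the submitters' processing notes, the authors used MAS5, and the deposited values are its linear intensity per probe set. For its version, nothing was stated in these sources. Arrays were grouped by title. Of 45101 probe sets, 64 controls, 932 listing several genes and 9160 listing none were left out; 34741 of the other 34945 were matched by Entrez ID to RefSeq symbols.

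A pseudocount of 23 (the median value, 92.9, divided by 4) was added before log2. Of 18194 genes, 12187 passed a mean of 95.03 (the median over probe sets) and were tested with limma 3.58.1 in R 4.3.3 (lmFit, eBayes with a trend, two-sided, Benjamini-Hochberg at 0.05), with 2 residual and 3.13 prior degrees of freedom. The labels name no separate animals, so p-values measure only the spread between these arrays, and their number limits the precision. With 2 arrays against 2, the smallest two-sided p of an exact permutation test is 0.333. The test was checked on simulated data with spreads drawn from these arrays. It called 0.1% of 2-fold, 0.6% of 4-fold and 38.4% of 16-fold changes there, so most changes of these sizes were missed.

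The members and lists were chosen with earlier results of these data known. Genes named were the members, up to 4 genes per list with the largest difference without overlap, and fixed partners; Stra6l and Ngb were added after their values were seen. Where both PBS arrays lay at background, the fold is a bound on plain log2 signals. Alternatives were other normalizations, pseudocounts, filters, variance models, array weights, probe set rules, the replicate number as a block and each array left out. Python 3.11.15, pandas 2.3.3 and matplotlib 3.10.9 were used for figures and counts.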

Additional observations from a re-analysis of the deposited data

How the results depend on the processing

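The differences of the 9 stellate genes stayed below the threshold in every setting that kept all 4 arrays, and their sign held there except for Lrat (−0.0063 with quantile normalization, −0.042 with median centring, −0.0006 with 4 times the pseudocount and −0.15 with the mean of all probe sets), Ngfr (−0.036) and Hgf (−0.077), both with the mean of all probe sets. With 1 array left out, the sign turned for all 9: Lrat ran from −0.78 to 0.80, Reln from −0.46 to 1.31, Hand2 from −0.15 to 1.97, Colec11 from −0.51 to 1.18, Cygb from −0.32 to 0.89, Ngfr from −1.11 to 1.90, Hgf from −0.49 to 0.83, Rgs5 from −0.0057 to 1.20 and Ecm1 from −0.51 to 1.45; the negative values came without PBS replicate 1, and for Lrat and Hgf also without a G-CSF array. Genes called by limma numbered 0 higher and 0 lower; they numbered 33 higher with array weights, 11 higher with specific probe sets only, and 6 to 2753 higher and 0 to 1936 lower with 1 array left out. With the replicate block 89 were higher and 3 lower. The deviations of same-numbered arrays had a Pearson r of −0.038 across genes. As PBS replicate 1 stood apart, this value cannot decide whether the number pairs the arrays. Genes at least 2-fold apart without overlap numbered 492 higher and 185 lower, against 295 and 83 with the 75th percentile filter, and on the lower side 107 with 4 times the pseudocount, 304 with no filter and 120 with the mean of all probe sets; with 1 array left out they were 546 to 2007 higher and 267 to 1349 lower. The neurotrophin median, 0.40, was 0.53 with a pseudocount of 1, 0.25 with 4 times the pseudocount and 0.086 with the mean of all probe sets, and the globin median, −0.13, was 0.28 with the 75th percentile filter, which tests fewer genes. With 1 array left out, list medians ran from −0.49 to 1.20 (the 9 stellate genes), 0.063 to 1.06 (other stellate genes), −0.36 to 0.98 (retinoid storage), −0.46 to 0.89 (HGF), −0.32 to 0.050 (globin), 0.13 to 0.55 (Rgs5 family), 0.41 to 0.79 (activated stellate genes), −0.25 to 0.90 (hepatocyte), −0.41 to 0.82 (Kupffer cell), −0.40 to 0.65 (retinoid oxidation and receptors), −0.26 to 0.44 (reelin), 0.015 to 0.96 (neurotrophin), −0.68 to 0.99 (lectin), −0.27 to 0.77 (Hand2 partners), −0.064 to 0.93 (pericyte), 0.25 to 0.98 (portal fibroblast), −0.047 to 1.01 (endothelial), −0.22 to 1.14 (cholangiocyte), 4.27 to 4.90 (neutrophil), −4.00 to 0.018 (T cell) and −0.26 to 1.52 (B and plasma cell). Apart from settings with fewer genes or arrays, the cause was not tested. Signals near background limit Ngfr and Hgf.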
